A study of Rattus norvegicus with 40 samples.

Results

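C3 and C1qb, 2 genes of the complement system, were followed through rat carotid arteries injured with a balloon, with or without tPA. The members were all probe sets (sets of short probes for a transcript) whose platform annotation gave exactly 1 of these symbols, and 4 of the 8799 probe sets on the array qualified, 2 for each gene. The genes were chosen from measured values, with earlier results of these data in view, and the difference between injured gel arteries and sham arteries on day 4 is treated as the value that chose them. Every comparison that holds left gel day 4 or sham day 4 arrays is therefore given for these genes as a description, with no test, and 10 other comparisons were tested.

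The study asked how tPA (tissue plasminogen activator, which cleaves plasminogen to give the protease plasmin) alters the early remodelling of an injured artery. Male Wistar-Kyoto rats of 3 months had the left common carotid artery injured with a balloon catheter, which strips the inner lining and stretches the wall. The outer side of that vessel then received 500 μl of plain pluronic gel, a carrier, or recombinant tPA in the gel at 20 nmol/kg. Left injured arteries and right arteries of the injured animals were collected on day 1 or day 4, which gave 8 groups of 3 arrays: left gel, right gel, left tPA and right tPA on each day. The controls were left arteries from sham surgery, with 4 arrays on day 1 and 6 arrays on day 4, and 6 arrays of left arteries from intact rats, so 40 arrays fell into 11 groups. Each array held the RNA of 3 vessels together. The right vessel had neither balloon nor gel, but came from an animal that had both on the other side. Whether left and right arrays hold vessels of the same rats is not given in the sources used here, and p-values measure the spread between these pools.

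Complement is a set of blood and tissue proteins that mark surfaces and dying cells for removal and call in leukocytes. C1q, the recognition molecule of the classical pathway, is built of A, B and C chains and is made mostly by macrophages, and C1qb encodes the B chain. C3 is the protein on which all complement pathways converge: cleaved C3 tags surfaces and feeds the later steps. The liver makes most C3 of the blood, while macrophages, fibroblasts, fat cells and other cells make it locally when exposed to cytokines such as interleukin 1.

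In the current RefSeq assembly, GRCr8, C3 lies on chromosome 9 (chr9:2174412-2201339) and C1qb on chromosome 5 (chr5:154402276-154407827), both on the minus strand. The 250 bases before each start site, taken from RefSeq on GRCr8 (chr9:2201340-2201589 for C3 and chr5:154407828-154408077 for C1qb) and written 5′ to 3′ on the gene's strand, are shown because both genes stood highest in the same group of arteries. Capitals mark motif matches.
C3: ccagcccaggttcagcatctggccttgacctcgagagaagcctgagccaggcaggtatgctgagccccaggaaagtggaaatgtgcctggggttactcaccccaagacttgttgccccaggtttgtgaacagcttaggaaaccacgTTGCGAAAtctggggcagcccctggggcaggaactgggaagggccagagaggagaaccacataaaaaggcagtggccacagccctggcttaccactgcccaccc
C1qb: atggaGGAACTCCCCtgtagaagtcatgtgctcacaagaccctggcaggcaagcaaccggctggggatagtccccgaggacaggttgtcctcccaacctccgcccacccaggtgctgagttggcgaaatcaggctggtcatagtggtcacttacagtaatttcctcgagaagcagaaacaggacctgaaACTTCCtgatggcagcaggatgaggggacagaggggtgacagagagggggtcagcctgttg
The motifs searched, on both strands, were those of C/EBP (TTGCNNAA), NF-kB (GGG, any 3 bases, TTCC), AP-1 (TGANTCA), ISRE (GAAA, any 2 bases, GAAA), GAS (TTCNNNGAA) and PU.1 (GGAAGT), in the 250 bases before and the 50 bases after each start. C3 held a C/EBP match on its own strand, from 104 to 97 bases before the start. C1qb held an NF-kB match from 245 to 236 bases and a PU.1 match from 61 to 56 bases before the start, both on the opposite strand. No motif was found in both promoters. Among 33469 rat promoters of this length, 10.6% held the C/EBP motif, 5.37% the NF-kB motif and 22.6% the PU.1 motif. AP-1, ISRE and GAS letters, held by 7.33%, 3.92% and 8.87% of promoters, were in neither window. A match here is a description of letters, and these arrays measured no binding.

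The arrays had nearly the same trimmed mean (500.3 to 500.8 intensity units) and medians from 103.2 to 168.3, and the smooth muscle genes Acta2 and Myh11, which define the vessel's main cell type, had median intensities of 6317 and 5460. An index built from 870 probe sets higher and 654 lower after injury, without C3 and C1qb, lay at 0.38 to 0.54 in left gel arrays on day 1, 0.89 to 0.92 on day 4 and -0.60 to -0.22 in sham and intact arrays. By this index 4 tPA arrays stood apart from their group. Replicate 1 of right tPA on day 4 (0.55) and replicate 2 of right tPA on day 1 (0.57) lay near injured arteries. Replicate 1 of left tPA on day 4 (-0.31) and replicate 2 of left tPA on day 1 (-0.06) lay near uninjured ones. The arrays of each day that stood apart carry the same number on the left and the right side, and whether the labels of the sides were exchanged there was not tested. Labels were kept as deposited, so left and right tPA values hold only as far as those labels do. Several results that turn on these arrays are also given without them, a choice that rests on the outcome. Of the values of right gel day 1 replicate 3, 6.54% lay at the floor, the lowest share of all arrays. The actin 3'/5' ratio, signal at the 3' end of a control transcript over that at the 5' end, was 7.38 to 8.09 in left gel day 4 arrays against 11.8 to 23.7 in sham arrays of day 4. The lowest ratio of all arrays was 2.80, in left tPA day 1 replicate 3, followed by 4.95 in right tPA day 4 replicate 1. The part of that ratio in the results was not tested.

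C3 was dim. Its brighter probe set (X52477_at) lay below the floor of 23.3 intensity units on 14 of 40 arrays, and its mean ranked at the 38.4th percentile of all probe sets, where values under the floor carry no order. Left gel day 4 arrays read 697.2, 391.8 and 912.1, above every array of every other group. On day 1 the same kind of artery read 26.6, 6.3 and 65.6.
Sham arteries read 278.2, 240.4, 59.7 and 54.9 on day 1. On day 4 they ran from 11.5 through a median of 20.2 to 45.2, so the sham groups of the 2 days did not overlap. Intact arteries ran from 7.3 through a median of 21.85 to 181.2, and 2 of the 6 arrays (181.2 and 164.5) stood well above the rest.
With tPA, left arteries read 199.9, 16.5 and 309.4 on day 1. They read 28.5, 64.2 and 304.8 on day 4. In each of these groups the lowest array was the one that stood apart by the injury index.
Right gel arteries read 6.1, 9.0 and 21.4 on day 1, all below the floor. They read 139.8, 23.1 and 134.5 on day 4. Right tPA arteries read 89.0, 319.3 and 293.2 on day 1 and 196.7, 22.3 and 43.1 on day 4. The highest right tPA array of each day was the one that stood apart.

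In log2 intensity, C3 was highest in left gel on day 4 (9.30 ± 0.62, SD, n = 3). Next came right tPA on day 1 (7.66 ± 1.03, n = 3), and these neighbours were the only ones in the order whose ranges did not overlap. The order then ran through sham day 1 (6.93 ± 1.26, n = 4), left tPA day 1 (6.82 ± 2.00), left tPA day 4 (6.36 ± 1.74), right gel day 4 (6.25 ± 1.48), right tPA day 4 (5.86 ± 1.58), intact (5.51 ± 1.49, n = 6), left gel day 1 (5.10 ± 0.81) and sham day 4 (4.76 ± 0.39, n = 6). Right gel day 1 was last, with all 3 arrays at the floor. From the second place down, no neighbour differed from the next by more than the larger of their SDs.
The dimmer C3 probe set (M29866_s_at) failed the filter on low values and was not tested. It read 58.8, 147.3 and 266.0 in left gel arrays of day 4. Every sham and intact array lay at 19.1 or less, below the floor. Outside left gel day 4, its only arrays above the floor were right tPA day 1 replicates 2 and 3 (58.4 and 30.0), left tPA day 1 replicate 3 (30.4) and right gel day 1 replicate 3 (23.4).

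**Figure D1:**
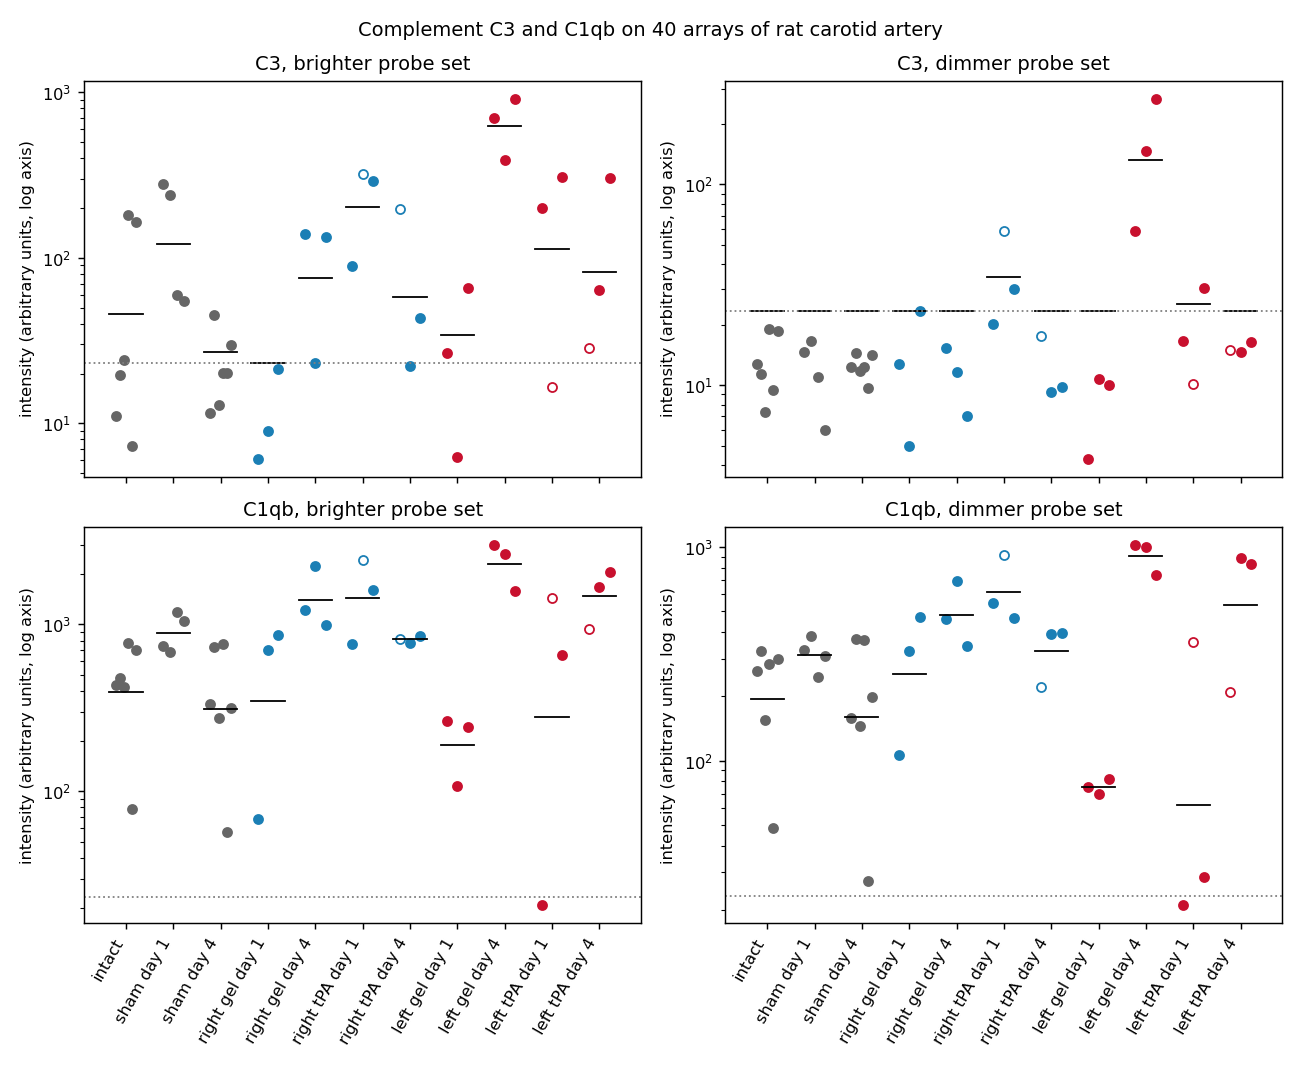
Intensity (log axis, arbitrary units) of both probe sets of C3 and of C1qb on each of 40 arrays in 11 groups, with left injured arteries in red, right arteries in blue and sham or intact arteries in grey. Horizontal lines are means of the floored log2 values, the dotted line is the floor of 23.3, and open points are the 4 tPA arrays that stood apart. Both C3 probe sets are highest in left gel day 4, and C1qb is low in left gel day 1.

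C1qb was brighter, with its main probe set (X71127_at) at the 78.7th percentile and below the floor on 1 array. Left gel arteries read 263.9, 107.4 and 241.9 on day 1. On day 4 they read 2980.2, 2634.1 and 1574.4. The first group was the lowest of all 11 by its mean and the second the highest.
Sham arteries read 741.4, 679.2, 1192.5 and 1053.0 on day 1. On day 4 they ran from 56.8 through a median of 325.5 to 767.7. Intact arteries ran from 78.4 through a median of 457.0 to 775.2. In both of the larger control groups replicate 5 was far below the other arrays.
Left tPA arteries read 20.8, 1432.1 and 656.3 on day 1. They read 935.2, 1675.5 and 2069.9 on day 4. The day 1 group spanned nearly the whole range of the gene, and its highest array was the one that stood apart.
Right gel arteries read 68.1, 704.2 and 859.0 on day 1 and 1212.5, 2252.2 and 993.8 on day 4. Right tPA arteries read 761.5, 2425.5 and 1601.8 on day 1. On day 4 they read 816.5, 774.3 and 856.7, the tightest group for this gene. On day 4 every right gel array lay above every right tPA array.

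The order of C1qb in log2 intensity ran from left gel day 4 (11.18 ± 0.49) through left tPA day 4 (10.53 ± 0.59), right tPA day 1 (10.49 ± 0.85), right gel day 4 (10.45 ± 0.62), sham day 1 (9.80 ± 0.39), right tPA day 4 (9.67 ± 0.07), intact (8.62 ± 1.20), right gel day 1 (8.43 ± 2.03), sham day 4 (8.29 ± 1.36) and left tPA day 1 (8.13 ± 3.16) to left gel day 1 (7.57 ± 0.72). The ranges of all neighbours in this order overlapped, at both ends too, so the places of neighbours are not settled.
The second C1qb probe set (X71127_g_at) is drawn from the same transcript record, so it is not independent of the first. It read 75.3, 69.5 and 82.3 in left gel arrays of day 1. It read 1017.4, 996.2 and 739.6 on day 4. Left tPA arrays read 21.1, 359.3 and 28.7 on day 1 and 208.4, 886.3 and 826.6 on day 4. As on the first probe set, left gel day 4 was the highest group, but here left tPA day 1 (5.96 ± 2.20) lay below left gel day 1 (6.24 ± 0.12). The C1qb probe sets correlated at r = 0.87 over the 40 arrays.

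On day 4, injured gel arteries exceeded sham arteries in both genes, the contrast taken to have chosen them. C3 differed by 4.54 (SE 0.83; log2, first group minus second, as for all differences), a 23.2-fold difference on the floored scale, and the dimmer probe set was at least 5.67-fold higher against a sham group wholly under the floor. C1qb differed by 2.89 (SE 0.87), 7.41-fold, and by 2.50 (SE 0.70) on its second probe set. The ranges of all 4 probe sets lay apart, as did those of 14.1% of all probe sets tested in this direction.
Injured gel arteries were also set beside the right vessels of day 4. Against right gel arteries C3 was higher by 3.05 (SE 0.95) with ranges apart, as for 16.6% of probe sets in that direction, while C1qb was higher by 0.73 (SE 1.01) with overlapping ranges and by 0.93 (SE 0.81) on its second probe set, with ranges apart. Against sham, right gel arteries differed in C1qb by 2.16 (SE 0.87), with ranges apart as for 9.95% of probe sets, and in C3 by 1.49 (SE 0.83), with overlapping ranges. The second C1qb probe set differed by 1.58 (SE 0.70) there, with overlapping ranges. By its mean, the uninjured right artery stood between sham and injured vessels in C3 and on both C1qb probe sets.

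With tPA, C3 in the injured artery on day 4 differed from gel by -2.93 (SE 0.95), 7.64-fold lower, and the ranges lay apart, as for 5.51% of probe sets in that direction. C1qb differed by -0.64 (SE 1.01), with overlapping ranges, and by -0.77 (SE 0.81) on its second probe set. Without the 4 tPA arrays that stood apart, C3 differed by -2.17 (SE 0.90), and C1qb by -0.31 (SE 1.07) and -0.09 (SE 0.74). Against sham, left tPA arteries of day 4 differed by 1.60 (SE 0.83) in C3 with overlapping ranges, and by 2.25 (SE 0.87) in C1qb with ranges apart, as for 4.91% of probe sets. The second C1qb probe set differed by 1.74 (SE 0.70), with overlapping ranges. Without the 4 arrays the differences were 2.37 (SE 0.80) in C3, and 2.58 (SE 0.96) and 2.42 (SE 0.66) on the C1qb probe sets.

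The day 1 comparisons were tested. Over the 10 tested comparisons, limma called C3 in 0 and C1qb in 0 by its main probe set and in 1 by its second (adjusted p under 0.05), with unadjusted p under 0.05 in 2, 3 and 5 of them. In these comparisons 439 to 1277 of all 5827 probe sets had an unadjusted p under 0.05. On day 1 the mean of injured gel arteries lay below that of sham arteries in both genes. C1qb differed by -2.23 (SE 0.94, 4.69-fold, adjusted p = 0.231) and every gel array lay below every sham array, as for 11.3% of probe sets in that direction. The second probe set differed by -2.05 (SE 0.76, adjusted p = 0.152), also with ranges apart. C3 differed by -1.82 (SE 0.89, adjusted p = 0.339) with overlapping ranges. None passed the threshold, which 3.12% of all 5827 probe sets did.
The call changed with the setting. With array weights C1qb passed (-1.79, adjusted p = 0.00953) and C3 too (-1.85, adjusted p = 0.0226), and with only the 7 arrays of these groups in the fit C1qb passed (-2.23, adjusted p = 0.00988). Over all alternatives the adjusted p of C1qb ran from 0.00953 to 0.535 and that of C3 from 0.0226 to 0.611. Without the 4 tPA arrays, which enter here through the shared spread alone, the second C1qb probe set passed (-2.05, adjusted p = 0.0396).

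Skeletal muscle markers moved with the group: their summed intensity over 9 genes lay between 22091 and 39746 in left gel arrays of day 1 and between 2672 and 3997 in sham arrays of that day, and its part in the C1qb difference was not tested. Right gel arrays of day 1, with a muscle sum of 2448 to 3807, read 68.1 to 859.0 in C1qb. Against those arrays left gel differed by -0.86 (SE 1.01, adjusted p = 0.692) in C1qb and by -1.75 (SE 0.81, adjusted p = 0.279) on the second probe set, whose ranges lay apart, as for 13.7% of probe sets in that direction. C3 differed by 0.56 (SE 0.95, adjusted p = 0.803), with the right group wholly at the floor. The threshold was passed by 0.549% of probe sets in that comparison.
Right gel arteries of day 1 lay below sham arteries in C3, at least 5.22-fold (-2.38, SE 0.89, adjusted p = 0.261), with all right arrays under the floor and all sham arrays over it. Ranges lay apart in that direction for 4.74% of probe sets, and 0.927% of probe sets passed the test. C1qb differed by -1.37 (SE 0.94, adjusted p = 0.586), and its second probe set by -0.30 (SE 0.76, adjusted p = 0.920), a value of 0.32 without right gel replicate 1.

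**Figure D2:**
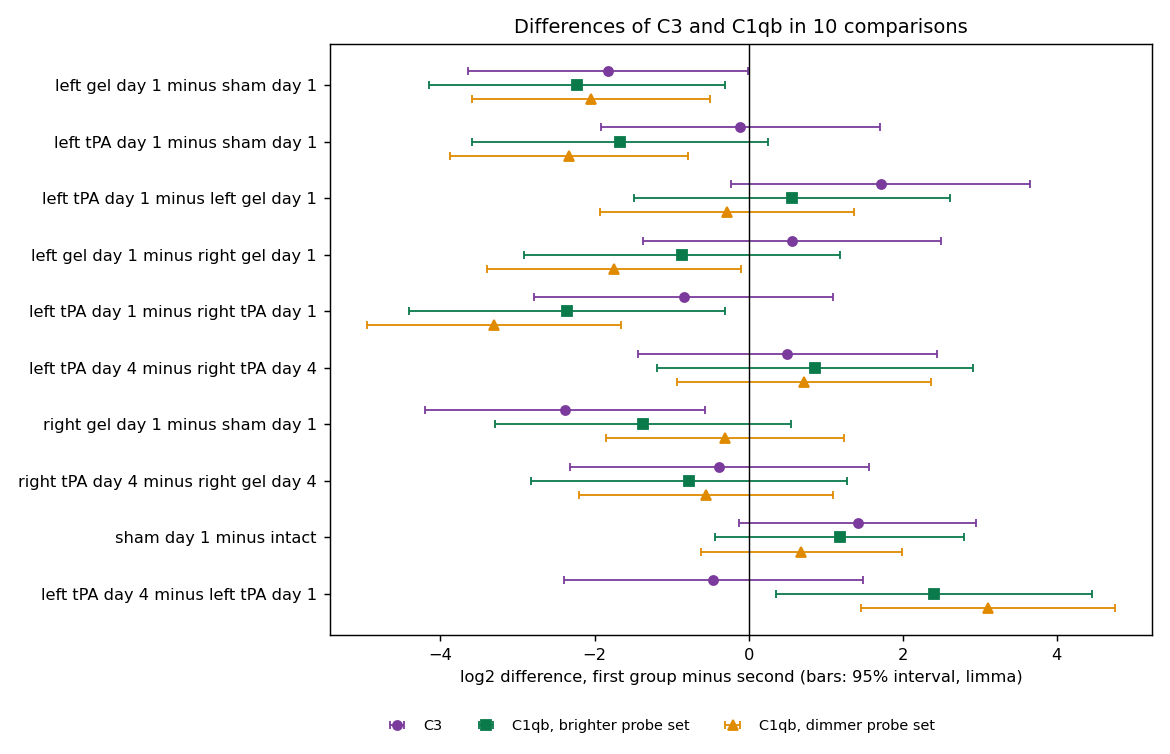
Log2 differences, first group minus second, of C3 and both C1qb probe sets in the 10 tested comparisons, with 95% intervals from limma on the horizontal axis. The intervals of both C1qb probe sets lie below 0 for left gel against sham and for left against right tPA on day 1. They lie above 0 for left tPA day 4 against day 1. That of the dimmer C1qb probe set alone also lies below 0 for left tPA against sham and left against right gel on day 1. C3 lies below 0 for left gel and right gel against sham on day 1. After adjustment over all probe sets only the dimmer C1qb probe set in left tPA day 4 against day 1 passes (adjusted p = 0.0480).

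Left tPA arteries of day 1 were set against sham arteries of that day. C3 in left tPA arteries differed from sham by -0.11 (SE 0.89, adjusted p = 0.959), where 4.43% of probe sets passed. The sign of this small difference turned when left tPA replicate 2 (1.03), sham replicate 1 (0.29) or sham replicate 2 (0.22) was left out. C1qb differed by -1.67 (SE 0.94, adjusted p = 0.303), a value that rested on left tPA replicate 1, without which it was 0.12. The second C1qb probe set differed by -2.33 (SE 0.76, adjusted p = 0.0702), and without left tPA replicate 2, one of the arrays that stood apart, it passed (-3.60, adjusted p = 0.00226).
Against injured gel arteries of day 1, left tPA arteries differed by 1.72 in C3 (SE 0.95, 95% interval -0.22 to 3.65, adjusted p = 0.438). Without the 4 tPA arrays that stood apart this C3 difference was 2.85 (SE 0.90, 95% interval 1.01 to 4.69, adjusted p = 0.105). C1qb differed by 0.56 (SE 1.01, 95% interval -1.49 to 2.61, adjusted p = 0.843), and by -0.62 without left tPA replicate 2 and -0.06 without replicate 3. The second probe set differed by -0.28 (SE 0.81, adjusted p = 0.912), and by 0.43 without replicate 1 and 0.28 without replicate 3. In this comparison 0.12% of probe sets passed. These intervals leave room for differences of several fold in either direction for C1qb, so the arrays do not show that tPA and gel acted alike.

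Between the sides under tPA, left arteries of day 1 lay below right ones by their mean in C1qb (-2.36, SE 1.01, adjusted p = 0.402), with overlapping ranges. Leaving out 1 array at a time, this difference ran from -3.54 to -0.57, the latter without left tPA replicate 1. The second probe set differed by -3.30 (SE 0.81, adjusted p = 0.109), and its ranges lay apart as for 5.97% of probe sets. The second probe set passed without left tPA replicate 2 (-4.57, adjusted p = 0.00138) and without all 4 arrays that stood apart (-4.28, adjusted p = 0.00099). C3 differed by -0.84 (SE 0.95, adjusted p = 0.849), and by 0.29 without left tPA replicate 2. The threshold was passed by 0.0172% of probe sets.
On day 4 left tPA arteries differed from right ones by 0.86 in C1qb (SE 1.01, adjusted p = 0.882), with every left array above every right array, as for 3.91% of probe sets. On the second C1qb probe set the ranges overlapped (0.72, SE 0.81, adjusted p = 0.882). C3 differed by 0.50 (SE 0.95, adjusted p = 0.950), and by -0.16 without right replicate 2 and -0.45 without left replicate 3. Without the 4 tPA arrays that stood apart this C3 difference was 2.14 (SE 0.99, adjusted p = 0.262). In that comparison 0.0343% of probe sets passed. The left minus right difference of day 4 less that of day 1, examined after seeing the data, was 3.22 in C1qb (SE 1.43, adjusted p = 0.440), 4.02 on its second probe set (SE 1.15, adjusted p = 0.142) and 1.34 in C3 (SE 1.35, adjusted p = 0.846).

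The right vessels of tPA and gel animals on day 4 differed by -0.77 in C1qb (SE 1.01, adjusted p = 0.965), with ranges apart as for 6.13% of probe sets. On the second C1qb probe set the ranges overlapped (-0.56, SE 0.81, adjusted p = 0.971). C3 differed by -0.38 (SE 0.95, adjusted p = 0.994), and by 0.06, 0.03 and 0.28 without right gel replicate 1, right gel replicate 3 and right tPA replicate 2. Without the 4 tPA arrays that stood apart this C3 difference was -1.26 (SE 0.90, adjusted p = 0.768). The threshold was passed by 1.63% of probe sets. Sham surgery on day 1 differed from intact arteries by 1.41 in C3 (SE 0.75, adjusted p = 0.514) and by 1.18 in C1qb (SE 0.80, adjusted p = 0.624; second probe set 0.68, SE 0.64, adjusted p = 0.756), where 0.944% of probe sets passed. By day 4 sham arteries differed from intact ones by -0.75 in C3 (SE 0.67) and -0.34 in C1qb (SE 0.71), and the latter was 0.16 without sham day 4 replicate 5. From day 1 to day 4 sham arteries differed by -2.17 in C3 (SE 0.75), with ranges apart as for 4.91% of probe sets, and by -1.51 and -0.97 on the C1qb probe sets (SE 0.80 and 0.64), whose ranges overlapped.

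Over time in the injured artery, both genes were far higher on day 4 than on day 1 with gel. C3 differed by 4.19 (SE 0.95), and C1qb by 3.61 (SE 1.01) and 3.59 (SE 0.81) on its probe sets, with ranges apart as for 23.0% of all probe sets in that direction. With tPA the same step was tested, and the second C1qb probe set rose by 3.10 (SE 0.81, 8.60-fold, adjusted p = 0.0480), with overlapping ranges, where 1.15% of probe sets passed. C1qb by its main probe set differed by 2.40 (SE 1.01, adjusted p = 0.262), and C3 by -0.46 (SE 0.95, adjusted p = 0.898), a difference of 0.31 without left tPA day 4 replicate 1 and 0.27 without left tPA day 1 replicate 3.
The call of the second C1qb probe set was lost without left tPA day 4 replicate 2 or 3 (adjusted p = 0.188 and 0.169) and without left tPA day 1 replicate 1 or 3 (0.171 and 0.257), and its adjusted p ran from 0.00019 to 0.821 over the alternatives. Without the 4 arrays that stood apart it was 5.05 (adjusted p = 0.00019), and the main probe set was 3.91 (adjusted p = 0.0504). Leaving out 1 array at a time, the main probe set ran from 0.61 to 3.58, the lowest without left tPA day 1 replicate 1. On left tPA day 1 replicate 3 the second probe set read 28.7 and the main probe set 656.3. That array had the lowest actin 3'/5' ratio of all (2.80), and the part of this in the call was not tested.

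C3 and C1qb shared their highest group but did not follow each other within groups. Over the 40 arrays their main probe sets correlated at r = 0.43, over the 11 group means at r = 0.74, and over deviations from group means at r = 0.01. Without the left gel day 4 arrays r was 0.31 over 37 arrays. All points share the arrays' scaling, and C3 sits at the floor on 14 of them, which limits any correlation.

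**Figure D3:**
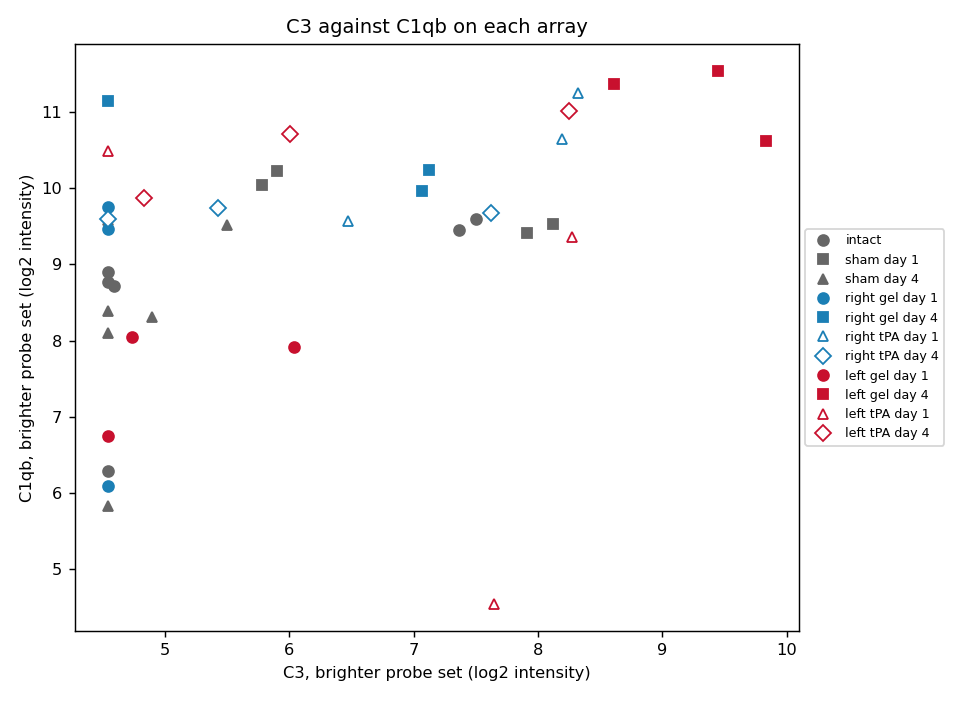
C1qb (vertical) against C3 (horizontal), log2 intensity of the brighter probe set of each, on 40 arrays marked by group. The 3 left gel day 4 arrays lie at the upper right, and the column of points at the left edge is the C3 floor, over which C1qb spans nearly its whole range.

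Of 42 complement genes listed, 23 were on the array and 12 passed the filter, 10 of them besides C3 and C1qb: C1qc, C1r, C1s, Masp1, Cfd, Cfp, Serping1, Cr1l, Clu and C5ar1. In each of the 10 comparisons tested for C3 and C1qb, limma called 0 of these 10. C1r and C1s, the proteases that C1q activates, differed by -0.12 (SE 0.21) and 0.11 (SE 0.29) between left gel and sham on day 4. C1qc, the C chain that assembles with the product of C1qb, differed by 0.15 (SE 0.36) there, beside 2.89 for C1qb, and correlated with C1qb at r = 0.03 over 40 arrays. Its group medians ran from 124.75 in sham day 1 to 303.9 in left tPA day 1. C1qc is represented here by 1 probe set, and how well that probe set follows the transcript was not tested. These values therefore do not show that the B and C chain transcripts part in the artery.
In the alternative pathway, which amplifies C3 cleavage, left gel arteries of day 4 exceeded sham arteries in Cfd, the protease factor D (2.41, SE 0.37, adjusted p = 4.30e-05), and in Cfp, properdin, which stabilises the enzyme that cleaves C3 (1.32, SE 0.33, adjusted p = 0.00412). C5ar1, the receptor for the C5a fragment on leukocytes, rose (1.88, SE 0.43, adjusted p = 0.00194), and Masp1, a protease of the lectin pathway, fell (-0.81, SE 0.27, adjusted p = 0.0322). The other 6 did not pass, among them the inhibitors Serping1 (-0.91, SE 0.49, adjusted p = 0.217) and Clu (-0.98, SE 0.40, adjusted p = 0.0870) and the surface regulator Cr1l (0.21, SE 0.19). The median of the 10 was 0.13, beside 0.02 over all probe sets, and 19.2% of all probe sets passed in this comparison.
Cfd also rose in right gel against sham arteries of day 4 (2.25, adjusted p = 0.000131), the only one of the 10 to pass there, where 8.82% of all probe sets passed. Cfd is a fat cell product as well as a complement gene: the summed intensity of 8 adipocyte markers, Cfd included, lay between 9474 and 12874 in left gel arrays and between 7538 and 16029 in right gel arrays of day 4 against 3859 to 6008 in sham arrays, and its part in the Cfd and C3 differences was not tested. Between day 1 and day 4 of left gel, Cfd (2.20, adjusted p = 0.00235) and Cfp (1.43, adjusted p = 0.0322) rose, where 3.21% of probe sets passed, and the other 8 complement genes did not pass. Between the sham days C1qc rose (1.07, adjusted p = 0.0489) and Cr1l fell (-0.59, adjusted p = 0.0464), where 5.01% of probe sets passed, and leaving out any array of these groups ended at least 1 of these calls.

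**Figure D4:**
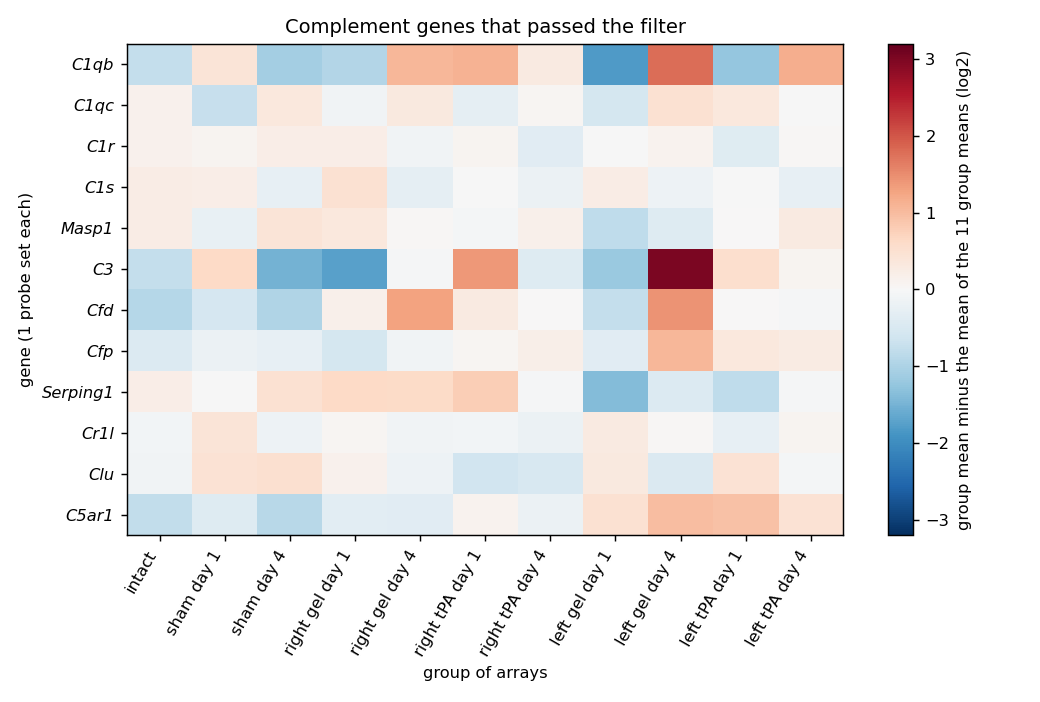
Mean log2 intensity of each group less the mean of the 11 group means, for the 12 complement genes that passed the filter (rows, 1 probe set each) in 11 groups (columns), red above and blue below. The darkest cell is C3 in left gel day 4, C1qb is about as far below its mean in left gel day 1 as above it in left gel day 4, and C1r, C1s and Cr1l stay pale across groups.

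Of 21 genes listed as inducers of C3 transcription (cytokines, their receptors and transcription factors), 12 were tested. Il1b, the cytokine interleukin 1 beta, rose by 4.08 (SE 0.85, adjusted p = 0.00569) in left gel against sham arteries on day 1 and by 4.62 (SE 0.79, adjusted p = 0.000128) on day 4, the only one of the 12 to pass in either. Of all probe sets, 3.12% passed on day 1 and 19.2% on day 4. On day 1 the level of Il1b was 11.02 ± 2.00 (SD, n = 3) in log2 intensity against 6.94 ± 0.19 (n = 4) in sham, while C3 in the same left gel arrays read 6.3 to 65.6. The day 1 call was lost without left gel replicate 1 or 3. Il1b rose also in left tPA arteries of day 1 (3.63, adjusted p = 0.0144), and Stat3, a transcription factor of the interleukin 6 pathway, rose from day 1 to day 4 in left gel (1.66, adjusted p = 0.00257). The median of the 12 was -0.02 on day 1 and 0.28 on day 4 for left gel against sham, beside -0.01 and 0.02 over all probe sets. Over 40 arrays C3 correlated with Il1b at r = 0.52 and with Cebpb, a C/EBP factor, at r = 0.51, and C1qb at r = 0.09 and -0.02.

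C1qb is made mostly by macrophages, and in left gel against sham on day 1 its difference lay below 0 (-2.23, adjusted p = 0.231) where those of the macrophage markers lay above it. Of 20 macrophage markers listed, 7 were on the array, and all 7 were tested. All 7 had a difference above 0 against sham, with a median of 0.96 beside -0.01 over all probe sets, and Cd14, the endotoxin co-receptor, passed (1.65, SE 0.44, adjusted p = 0.0295). Of all probe sets, 3.12% passed in that comparison. The Cd14 call was lost without any of 6 of the 7 arrays of these groups, left gel replicate 2 being the exception. Lgals3, the lectin galectin 3 (1.33, SE 0.46, adjusted p = 0.113), and Aif1, a macrophage activation marker (1.51, SE 0.75, adjusted p = 0.355), did not pass. The summed intensity of the 7 lay between 13006 and 14654 in left gel arrays of day 1 and between 6473 and 7330 in sham arrays, while C1qb read 107.4 to 263.9 and 679.2 to 1192.5.
On day 4 the sum in left gel arrays was 13549 to 17178, against 2851 to 4856 in sham, and C1qb read 1574.4 to 2980.2. Of the 7 markers, 5 rose there, with Lgals3 at 2.74 (adjusted p = 4.30e-05), Ctss, a lysosomal protease, at 1.89 (adjusted p = 0.000132), Aif1 at 3.83 (adjusted p = 0.000207) and Fcgr2b, an antibody receptor, at 3.47 (adjusted p = 0.000438). Of all probe sets, 19.2% passed in that comparison. Overlapping sums of macrophage markers in left gel thus went with C1qb levels about an order apart on the 2 days. The brightest markers, Ctss, Lyz2 and Lgals3 (median intensities 2755, 1749 and 1305), weigh most in the sum. Whether the sum stands for the same macrophage content on both days was not tested. In bulk tissue, fewer cells of a type and less RNA per cell cannot be told apart. Neutrophil markers, summed over 4 genes, were 438.8 to 3921 in left gel day 1 arrays against 132.9 to 289.3 in sham, and left gel day 4 arrays had 308.5 to 578.3. Hepatocyte markers summed to 769.9 to 1098 in left gel and 998.2 to 1753 in sham arrays of day 4, and to 602.3 to 868.5 in left gel arrays of day 1, and their part in the C3 differences was not tested.

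**Figure D5:**
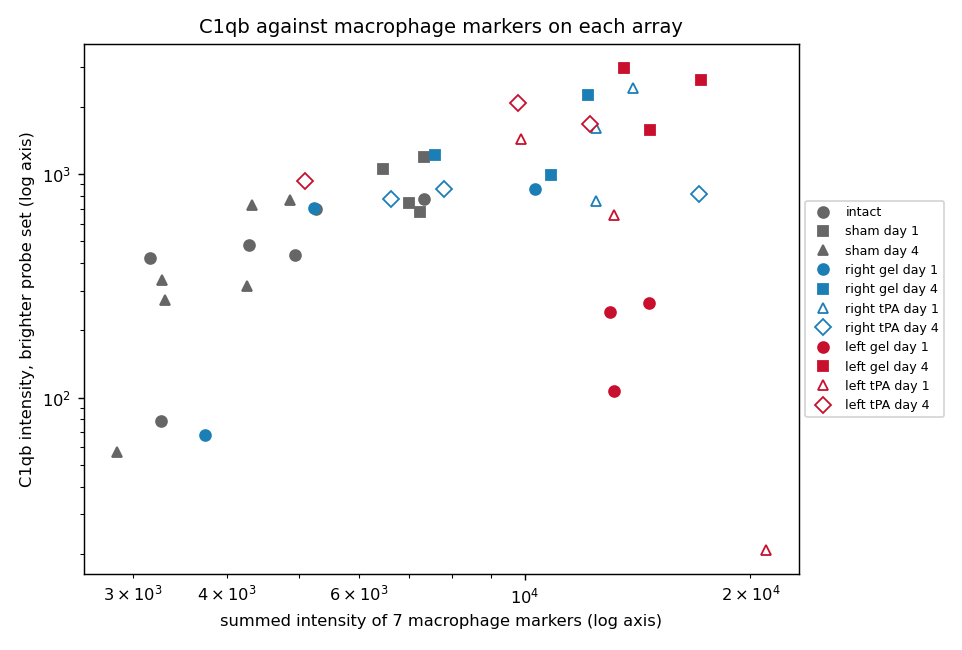
C1qb intensity (brighter probe set) against the summed intensity of 7 macrophage markers, both on log axes, on 40 arrays marked by group. The 3 left gel day 1 arrays and 1 left tPA day 1 array combine a marker sum of at least 13006 with C1qb at or under 263.9, and left gel day 4 arrays have a like sum with C1qb over 1574.

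Among 3545 other genes, the 8 whose pattern over 40 arrays was most like that of C3 were RT1-Db1 (r = 0.78) and RT1-DMb (0.74), both of MHC class II, Cd37 (0.74), a leukocyte membrane protein, Fcgr2b (0.74), Ptprc (0.73), the pan-leukocyte protein CD45, Lcp2 (0.73), a leukocyte signalling adaptor, Cfp (0.72) and Coro1a (0.71), a leukocyte actin-binding protein. Those most like C1qb were Psmb9 (0.77), an immunoproteasome subunit, Cdh22 (0.77), Cd74 (0.76), the MHC class II invariant chain, Tmbim6 (0.74), Anpep (0.74), a membrane peptidase, Tcn2 (0.73), Thy1 (0.72) and Tmsb15b2 (0.71). Correlation over 0.5 was found for 174 genes with C3 and 163 with C1qb, where the median r was 0.02 and 0.06. The first 8 of each list shared no gene, and the longer lists of genes over 0.5 were not compared.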

How the data were processed

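RNA from 40 pools of rat carotid arteries was hybridised to Affymetrix arrays. The authors deposited 1 linear intensity per probe set and array, and which software summarised the probes is not given in the sources used here. Trimmed means were nearly equal, so each value is relative to its array. Of 8799 probe sets, 59 controls were left out, and 89 values were 0. Values under 23.3, the 20th percentile, were set to that floor before log2 was taken; this understates changes of dim genes such as C3. A group wholly under the floor gives a bound, written as at least so many fold. The 2913 dimmest probe sets were left out and 5827 tested, covering 3546 genes named by the platform annotation, each represented by its brightest probe set. One limma model (R 4.3.3, limma 3.58.1, lmFit and eBayes) held all arrays with 11 group means, with Benjamini-Hochberg adjustment over all probe sets and a threshold of 0.05. The model was tested on simulated data.

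The members, lists and settings were chosen with earlier results of these data known. The naming rule took all probe sets of both genes, complement genes that passed, up to 4 inducer and macrophage genes per comparison, and the 8 genes most correlated with each member. Complement genes named without passing, and Cebpb, were chosen after their values were seen. Alternatives were quantile normalization, median scaling, other filters and floors, array weights, fits of only the compared groups, a replicate block, averaging 2 alike arrays, and arrays left out. Pairs of same-numbered arrays all correlated above 0.1 (0.117 to 0.284) in right gel against sham on day 1 alone, and no shared animals are named. Left gel day 1 replicates 1 and 3 were the most alike of 60 pairs within groups, but not identical, and count as 2.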

Additional observations from a re-analysis of the deposited data

Results flagged for a closer look

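Outliers were looked for in the 9 sets of 4 to 6 arrays formed by the 3 sham and intact groups and the 3 tested probe sets of C3 and C1qb. An extreme array was found in 3 of them. Chance gives about 1 in 20 for independent sets of normally spread values. Values tied at the floor, as in C3, and C1qb probe sets of the same transcript record do not meet that condition. Sham day 4 replicate 2 was the highest of its group in C3, at 5.50 in log2 intensity, while 4 of the 6 arrays lay at the floor. Intact replicate 5 was the lowest of its group in C1qb, at 6.29. Sham day 4 replicate 5 was the lowest of its group on the second C1qb probe set, at 4.78.

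The dimmer C3 probe set, which entered no test because of its low mean, read 58.8 on its lowest left gel day 4 array, against at most 19.1 on any sham or intact array.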

How the results depend on the processing

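The results below are the C3 and C1qb differences in the 10 tested comparisons. Under settings other than leaving out 1 array, 315 kept their direction and their side of the threshold, 13 passed it only under the alternative, 7 lost it and 5 turned. For left gel against sham on day 1, C3 passed with array weights (-1.85), and C1qb passed with array weights (-1.79), in a fit of the compared groups alone (-2.23) and there with the replicate block too (-2.15, adjusted p = 0.0278). The second C1qb probe set passed there with array weights (-2.04), a higher floor at the 40th percentile (-1.96), the compared groups alone (-2.05) and the replicate block (-2.06). Without the 4 tPA arrays that stood apart, C3 turned in left tPA against sham (1.03) and against right tPA (0.62) on day 1, and C1qb in left tPA against gel on day 1 (-0.62). With the floor at the 40th percentile C3 turned in left tPA against sham on day 1 (0.25) and the second C1qb probe set in left tPA against gel on day 1 (0.71). The call of that probe set in left tPA day 4 against day 1 was lost with quantile normalization (adjusted p = 0.0570), median scaling (0.0628), no filter (0.0812), a floor at the 40th percentile (0.0822), left gel day 1 replicates 1 and 3 averaged (0.0574), the compared groups alone (0.821) and the replicate block (3.10, adjusted p = 0.782). The causes were not tested. C3 had no value when the dimmest 50% were left out. The replicate block changed no other call of C3 or C1qb, and the numbers pair no samples by the labels.

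Leaving out 1 array at a time, C3 ran from -0.83 to 1.03 in left tPA against sham on day 1, from -1.57 to 0.29 in left against right tPA on day 1, from -0.45 to 1.38 on day 4, from -1.26 to 0.28 in right tPA against right gel on day 4 and from -1.60 to 0.31 in left tPA day 4 against day 1. C1qb ran from -2.85 to 0.12 in left tPA against sham and from -0.62 to 2.35 in left tPA against gel on day 1. It ran from -3.54 to -0.57 in left against right tPA on day 1 and from 0.61 to 3.58 in left tPA day 4 against day 1. Its second probe set ran from -1.55 to 0.43 in left tPA against gel on day 1, from -0.75 to 0.32 in right gel against sham on day 1 and from 2.40 to 4.37 in left tPA day 4 against day 1. The sham day 4 minus intact difference ran from -0.80 to 0.16 in C1qb and from -0.68 to 0.23 on the second probe set. The 182 probe sets past the threshold for left gel against sham on day 1 became 90 to 115 without 1 array and 94 to 1430 under the other settings. For left tPA day 4 against day 1, 67 became 9 to 159 and 1 to 274. For left gel against sham on day 1, complement genes past the threshold, C3 and C1qb included, numbered 0 without any 1 array and 0 to 5 under the other settings, and macrophage genes 0 to 1 and 0 to 4. C3 is limited by signal: 14 of its 40 values lay under the floor, so differences among its low groups cannot be ordered.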
